A study of Anser cygnoides with 9 samples.

Results

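Untreated granulosa cells of the goose ovary are described here by the level of every gene in the deposited mRNA table, with no comparison between treatments. The study grew ovarian granulosa cells of Sichuan white geese (Anser cygnoides) aged 40 weeks and treated them with the GnRH agonist alarelin acetate, with the GnRH antagonist cetrorelix acetate, or with neither. The 3 libraries labelled Blank, whose treatment is given as control, were chosen by that label from 9 libraries in all. The design text has the ovaries collected 2 hours ahead of laying. It names as sources of the cells preovulatory follicles together with pre-hierarchical ones measuring 4 to 12 mm, and the sample labels name small and large yellow follicles. What the blank cultures received in place of the peptides, how long they were grown, and whether the 3 libraries came from separate birds or cultures is not stated in the labels, and the spread between them may be technical. All 1371 listed genes were ranked by their mean in these libraries.

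Granulosa cells form the layer that surrounds the oocyte and its yolk. In birds they make progesterone and secrete regulators of the activin, inhibin and bone morphogenetic protein (BMP) family, which act within the follicle. They answer to follicle-stimulating hormone while the follicle is small and to luteinizing hormone as ovulation nears. Cells moved from a follicle into culture can also change what they transcribe, and uncultured follicle tissue was not analysed here.

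Levels are in TPM, the share of all transcripts in a library after correction for transcript length. Levels of different genes can be set side by side only as far as annotation and the assignment of reads to genes hold, which was not tested. The listed genes summed to 31764, 32645 and 32187 TPM in replicates 1, 2 and 3, or 3.18%, 3.26% and 3.22% of a full set of TPM values. The listed genes are therefore a small part of each transcriptome, and "most abundant" below means most abundant among the listed genes. The number of reads behind a value is unknown, since TPM keeps no depth.

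Replicate 1 stood apart from the other blank libraries. Its description label carries the run code H77KGDMXX and those of replicates 2 and 3 carry H773TDMXX, so for these libraries run code and library cannot be told apart. Among the 732 genes at 1 TPM or more in all 3 libraries, the median absolute difference of log2(TPM + 1) was 0.18 between replicates 1 and 2, 0.16 between 1 and 3, and 0.10 between 2 and 3. The order of genes was nearly the same in each library: the same 19 genes were in the first 20 of all 3 libraries, and 94 were in the first 100 of all 3.

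Abundance spanned more than 6 powers of 10 and was concentrated in few genes. The 10 most abundant genes made up 37.8%, 39.1% and 39.2% of the listed TPM in replicates 1, 2 and 3 (mean 38.7% ± 0.79, SD, n = 3), and the first 100 made up 80.3%, 82.3% and 82.3%. By mean, 6 genes reached 1000 TPM, 46 lay from 100 to 1000, 243 from 10 to 100, 488 from 1 to 10, 342 from 0.1 to 1 and 157 were above 0 but under 0.1 TPM. The 6 genes at 1000 TPM or more held 27.3% of the listed TPM and the 46 below them another 44.8%. The median gene was at 1.504 TPM.

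**Figure D1:**
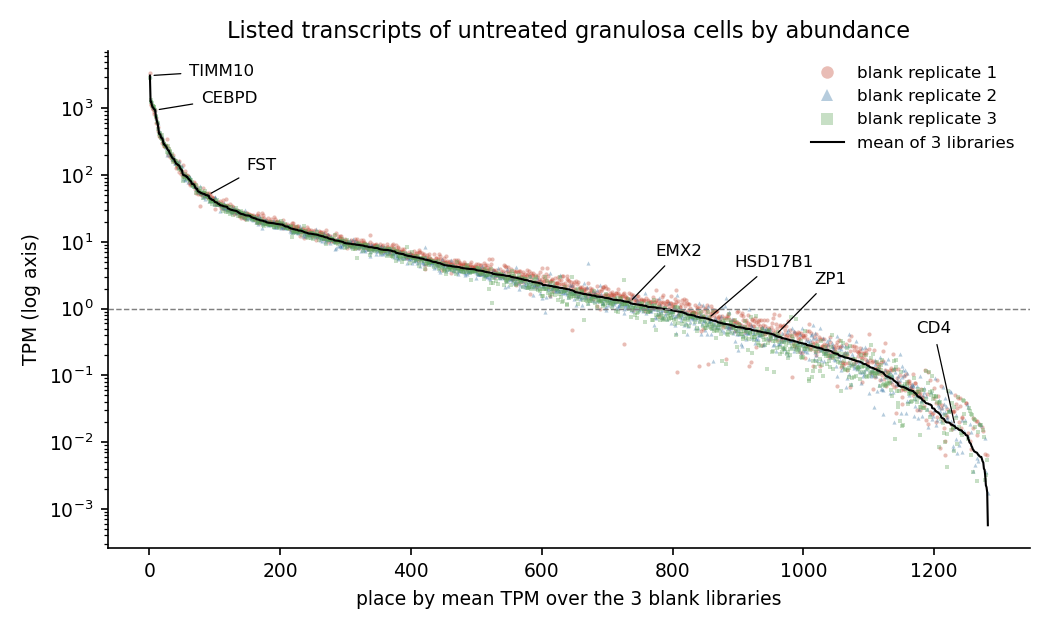
Listed genes above 0 in at least 1 blank library, ordered by mean TPM (horizontal axis, place) against TPM on a log axis. Coloured points are the 3 libraries, the black line is their mean and the dashed line is 1 TPM; the mean falls from 3095 TPM to 39.8 TPM over the first 100 places, and the libraries spread apart below 1 TPM.

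Transcripts were found in all 3 blank libraries for 1186 genes (86.5%), and 732 genes (53.4%) were at 1 TPM or more in all 3. HUNK lay just inside the limit of 1 TPM, with a lowest library at 1.00 TPM, and VSTM4 just outside, at 0.997 TPM. At the other end 89 genes (6.49%) were listed at 0 in all 3, and 96 were at 0 in 1 or 2 of the libraries. With 1 library left out these 3 counts can only stay the same or rise. Without replicate 1 they were 1209 above 0, 738 at 1 TPM or more and 107 at 0. Without replicate 2 they were 1196, 748 and 101, and without replicate 3 they were 1201, 752 and 107.

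TIMM10, a small chaperone that escorts membrane proteins through the mitochondrial intermembrane space, was the most abundant listed transcript. It was at 3346, 3085 and 2855 TPM in replicates 1, 2 and 3 (mean 3095 ± 245, SD, n = 3). All 3 of its values lay above every value of the next gene, and its mean was 2.45 times that of FTH1, the heavy chain of the iron store ferritin, which was at 1138, 1302 and 1346 TPM. In every library TIMM10 alone accounted for 8.87% to 10.5% of the listed TPM.

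Close behind FTH1 came PPIA, the prolyl isomerase cyclophilin A, at 1161, 1334 and 1259 TPM. JUN, a subunit of the transcription factor AP-1, followed at 1043, 1118 and 1195 TPM. FTH1 and PPIA overlapped and changed places between libraries. The large-subunit ribosomal protein RPL7 was at 973, 1073 and 1099 TPM. ATP5IF1, which blocks ATP hydrolysis by the mitochondrial ATP synthase, was at 963, 1040.1 and 1076 TPM. RPS3A of the small ribosomal subunit was at 882, 1045 and 1032 TPM, and MRPL41 of the mitochondrial ribosome at 829.6, 1015 and 1049 TPM. From FTH1 to CEBPD each gene overlapped with the next in the order. PPIA was above JUN, JUN above RPL7 and RPL7 above ATP5IF1 in all 3 libraries.

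CEBPD, a leucine zipper transcription factor induced by cytokines and hormones in many cells, was the steadiest of these at 941, 948 and 931 TPM (mean 940.0 ± 8.2, SD, n = 3). It lay above every value of RPL27, at 721, 793 and 778 TPM. Below them were SPARC, a secreted collagen-binding protein, at a mean of 626 TPM, RPL30 at 578, and PRELID1, which moves phosphatidic acid between the mitochondrial membranes, at 491. RPL8 was at 414 TPM, the small GTPase RHOB at 413 and CDKN1B, the cyclin-dependent kinase inhibitor p27, at 401. MEA1 at 366 TPM, the proton pump subunit ATP6V0E2 at 358 and CITED4, a partner of the CBP and p300 coactivators, at 355 closed the first 20. Among the 19 neighbouring pairs of these 20 genes, 15 had overlapping values and 4 did not, and 11 were in the same order in all 3 libraries.

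The next 10 places were held by ARHGDIA, which keeps a family of small GTPases inactive, at 325 TPM, TRIM7.2 at 291, the oligosaccharyltransferase subunit DAD1 at 290.1 and the transcriptional regulator RAI2 at 279. They continued with ARL6IP5 at 275 TPM, the vesicle tethering subunit TRAPPC4 at 264 and the splicing factor subunit SF3B5 at 254. JAGN1, a membrane protein of the endoplasmic reticulum, was at 240.2, the transcription factor MAF at 235 and the late endosome GTPase RAB7A at 232 TPM. SF3B5 was the least even of the 30, with 342, 198 and 223 TPM. TRAPPC4 was among the most even, at 269, 263 and 262 TPM.

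**Figure D2:**
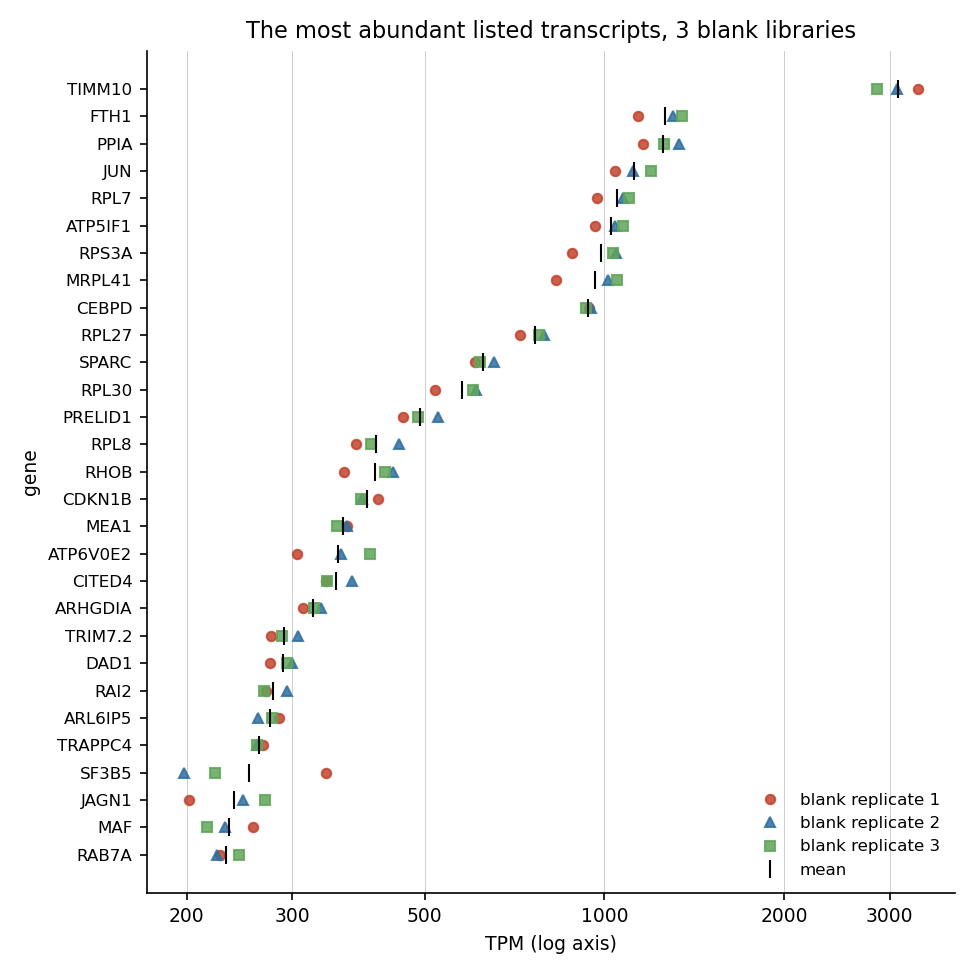
TPM on a log axis (horizontal) of the 30 listed genes with the highest mean in the blank libraries (vertical, 1 of them not shown). Symbols are the 3 libraries and black ticks their mean; TIMM10 at 2855 to 3346 TPM is clear of all others, and replicate 1 lies lowest for most genes from FTH1 to RHOB.

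Grouped by their known function, the 100 most abundant genes were led in TPM by mitochondrial proteins. The grouping was made by hand after the values were seen, and the last gene inside was KRTCAP3 at 39.8 TPM, the first outside TLCD1 at 39.4. Genes below the first 100 were not put into these classes. No share over all listed genes can therefore be set beside the counts, and whether a class is more frequent among abundant genes was not tested. Mitochondrial proteins were 11 genes with 23.8% of the TPM of the 100, of which TIMM10 gave about as much as the other 10 together. The cytosolic ribosome and translation had 9 genes and 18.7%, and transcription and chromatin 11 genes and 13.7%. Metabolism, iron and ion transport had 10 genes with 9.78%, among them ATP1B1, a sodium pump subunit, at 162 TPM and SMPD1, the acid sphingomyelinase, at 145. The endoplasmic reticulum and vesicle traffic had the most genes, 16, but 7.78% of the TPM. Signalling and cell cycle had 12 genes and 7.48%, protein folding and degradation 5 genes and 6.11%, and secreted and matrix proteins 7 genes and 4.80%. RNA processing had 5 genes and 2.57%, the actin cytoskeleton 2 genes and 0.354%, and 12 genes with 5.01% were not assigned.

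Most genes of protein synthesis and turnover were expressed where they were listed, and other general machinery less completely. All 14 listed cytosolic ribosomal protein genes, all 7 translation factors and all 6 proteasome genes were at 1 TPM or more in all 3 libraries, where 53.4% of all listed genes were. The counts were 10 of 11 for folding and secretion in the endoplasmic reticulum, 9 of 10 for splicing, 13 of 15 for ubiquitin conjugation, 15 of 20 for vesicle traffic and autophagy, and 9 of 12 for both oxidative phosphorylation and the mitochondrial ribosome. At a limit of 5 TPM ubiquitin conjugation came to 5 of 15 and the last 2 lists to 5 of 12 each. Cytosolic chaperones had 3 of 6 at 1 TPM or more and 2 at 0, where 6.49% of all listed genes were at 0. Those 2 were HSPB2 and HSPB3, grouped below with liver, blood, bone and muscle genes. Histones and chromatin proteins had 1 of 3 at 1 TPM or more, H2AFZ at 190 TPM. The median of the list members' means was 189 TPM for ribosomal proteins, 23.4 for the endoplasmic reticulum, 23.2 for the proteasome and 17.0 for splicing. It was 4.92 TPM for oxidative phosphorylation, 4.27 for ubiquitin conjugation, 1.84 for the mitochondrial ribosome and 1.53 for cytosolic chaperones, against 1.504 over all genes. For transcription machinery 5 of 9 subunits (55.6%) were at 1 TPM or more in all 3, near the share of all listed genes. The median was 2.25 TPM. MED16, a Mediator subunit, led that list at 21.0 TPM.

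**Figure D3:**
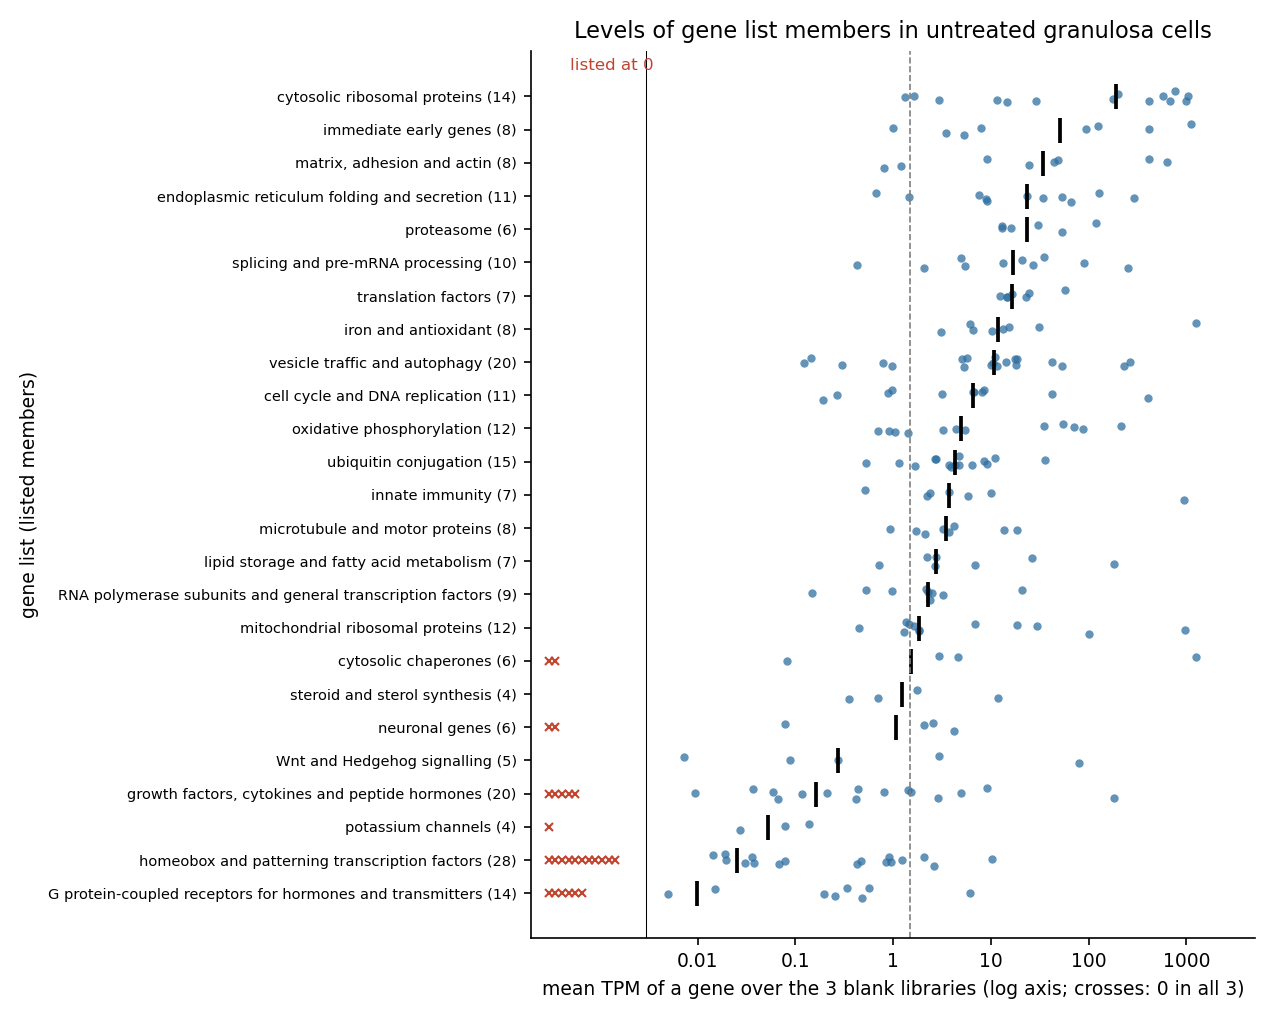
Mean TPM over the blank libraries (horizontal, log axis) of the members of each gene list with at least 4 listed genes (vertical, listed members in parentheses). Dots are genes, black ticks list medians, red crosses left of the thin line genes at 0 in all 3 libraries (their spacing carries no value), and the dashed line the median of all genes, 1.504 TPM; of the medians drawn, that of ribosomal proteins is highest and that of receptors lowest. Lists added after the values were seen are not drawn.

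Ribosomal protein genes, whose products enter the ribosome in equal numbers, were far from equal in TPM. RPL7 at 1048 ± 66 TPM (mean ± SD, n = 3) was 788 times RPL37A, at 1.52, 1.203 and 1.26 TPM in replicates 1, 2 and 3. Besides those already given, RPL12 was at 201 and RPS23 at 178 TPM. A second set was much lower: RPS7 at 28.8, RPS28 at 14.5, RPL22 at 11.7, RPL11 at 2.92 and RPS20 at 1.63 TPM. No value of the 8 higher genes came below 159 TPM and none of the 6 lower ones exceeded 30.3 TPM, in any library. The sum of the 14 genes was 4559.5, 5124 and 5063 TPM. How the authors divided reads between near-identical copies is not stated in the labels, and single levels in this family are uncertain.

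Levels were also uneven among genes that share another complex, a pair or a pathway. Equal numbers of their products are not assumed here. In the oligosaccharyltransferase, which attaches sugar chains to proteins entering the endoplasmic reticulum, DAD1 was at 276, 300.1 and 294 TPM and RPN1 at 124, 133 and 126 TPM. RPN2, a subunit of the same enzyme, was at 1.58, 1.37 and 1.41 TPM, and RPN1 exceeded it 78.4-, 96.8- and 89.7-fold in replicates 1, 2 and 3. The light chain of ferritin, FTL, was at 5.88, 6.34 and 6.31 TPM, so FTH1 was 193, 205 and 213 times as high. For the ATP synthase, ATP5J2 was at 215 TPM, ATP5C1 at 55.2, ATP5G3 at 5.44 and ATP5PB at 4.35 TPM, all below the inhibitor ATP5IF1 at 1026 TPM. In mitochondrial import, DNAJC19 was at 41.5 TPM, the outer membrane receptor TOMM22 at 20.3, TIMM44 at 3.68, TIMM22 at 2.83 and TOMM20 at 2.56, against 3095 TPM for TIMM10. The proteasome was more even, from PSMB3 at 120.3 TPM to its assembly chaperone PSMG1 at 12.9.

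**Figure D4:**
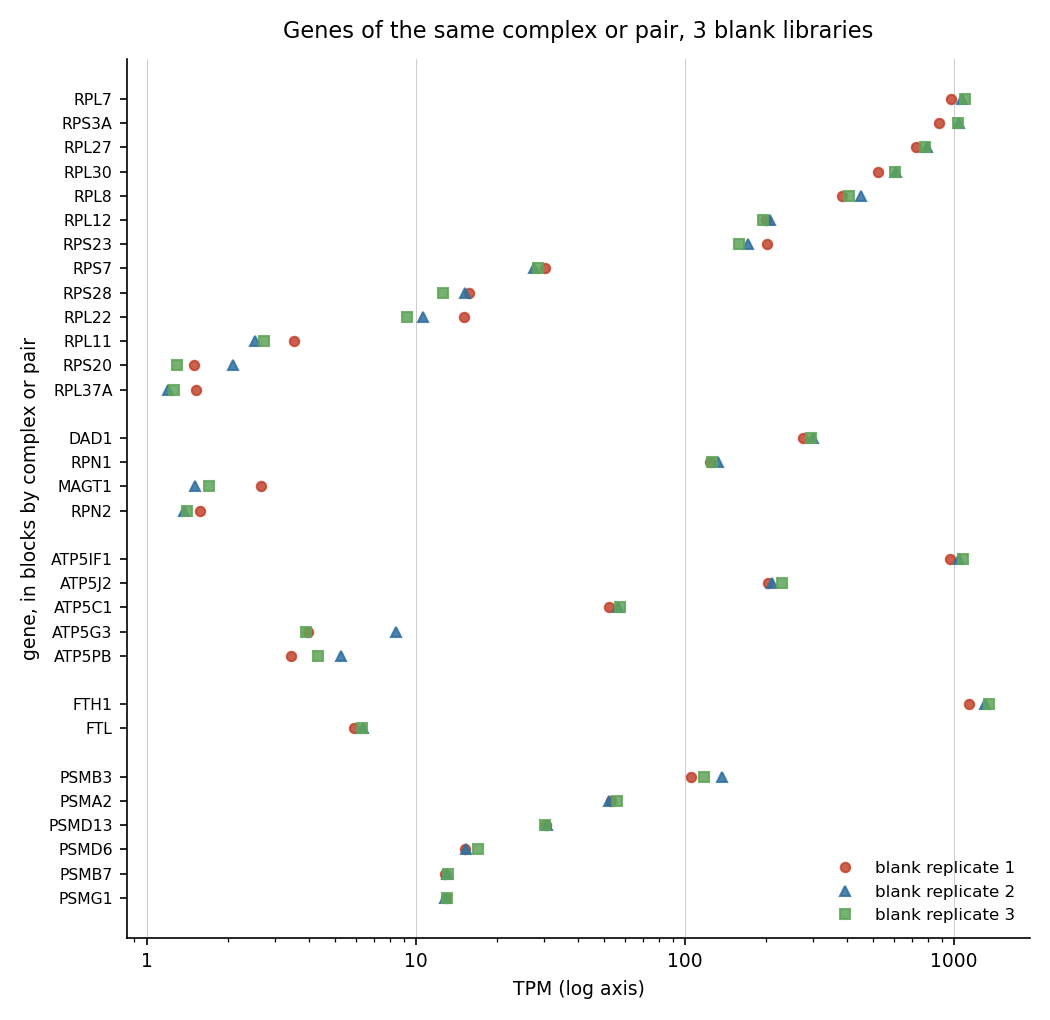
TPM on a log axis (horizontal) of listed genes whose products work in the same complex or pair (vertical), in blocks from the top: cytosolic ribosome (1 gene not shown), oligosaccharyltransferase, ATP synthase with its inhibitor, ferritin chains, proteasome. Symbols are the 3 libraries. Within a block genes lie up to 788-fold apart, and the libraries of ATP5G3 lie apart, from 3.90 to 8.45 TPM.

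The oxidative phosphorylation list was led by the ATP synthase subunit ATP5J2. Below it were SDHD of complex II at 87.4 TPM, and UQCRFS1 and UQCRC2 of complex III at 70.7 and 35.4 TPM. Complex I subunits were lower than these: NDUFA10 was at 3.22 TPM, NDUFV1 at 1.05, NDUFA12 at 0.899 and NDUFS4 at 0.702 TPM. Not every complex III gene was high, with UQCR10 at 4.39 TPM, and COX7A2L was at 1.43 TPM. UQCRC2 was the most even of these at 35.3, 35.4 and 35.4 TPM. In the mitochondrial ribosome, MRPL16 at 100.3, MRPL37 at 29.3, MRPL17 at 18.3 and MRPL32 at 6.86 TPM followed MRPL41 at 965 TPM, and the other 7 were below 2 TPM.

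In the list of transforming growth factor beta, BMP and activin genes, which includes targets of the pathway, 3 members were listed. All 3 were expressed, as were 53.4% of all listed genes. FST, follistatin, which binds and blocks activin, was at 53.7, 48.0 and 48.1 TPM. BMP4, a BMP ligand, was at 31.3, 38.5 and 32.7 TPM. ID4, which binds helix-loop-helix factors and keeps them off DNA, was at 10.9, 10.95 and 9.23 TPM. The libraries of these 3 genes did not overlap, in the order FST, BMP4, ID4.

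Of 5 listed Wnt and Hedgehog genes, 2 (40%) were at 1 TPM or more in all 3 libraries, where 53.4% of all listed genes were. FRZB, a secreted protein that binds Wnt ligands, was at 73.6, 82.3 and 85.05 TPM, and SFRP4 of the same family at 2.97 TPM. A further member of that family, SFRP1, was at 0.271 TPM, the Wnt agonist RSPO3 at 0.0889, and the ligand WNT9A was above 0 only in replicate 3, at 0.0216 TPM. Outside the list, GAS1, a growth arrest protein that also serves as a Hedgehog coreceptor, was at 72.8 TPM.

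The list of growth factors, cytokines and peptide hormones had 20 listed genes. Of these, 6 (30%) were at 1 TPM or more in all 3 libraries and 5 (25%) at 0 in all 3. Over all listed genes these shares were 53.4% and 6.49%. ANGPTL4, an inhibitor of lipoprotein lipase, was at 172, 196 and 181 TPM, far above every other member. PDGFA, a platelet-derived growth factor chain, was at 9.07 TPM, the endothelin EDN2 at 5.01, VEGFA at 2.89, the chemokine IL8 at 1.51 and GHRH, a hypothalamic releasing hormone, at 1.42 TPM. BTC, betacellulin, of the epidermal growth factor family, was at 0.804 TPM, ADCYAP1 at 0.435 and VEGFC at 0.420.

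In steroid and sterol synthesis 4 of 55 list members were listed. DHCR7, the last enzyme of cholesterol synthesis, was at 13.7, 9.78 and 11.9 TPM and GGPS1, an isoprenoid synthase, at 1.88, 1.76 and 1.65 TPM. HSD17B1, which converts estrone to estradiol, was at 0.149, 1.09 and 0.881 TPM, low in replicate 1 and near 1 in the others. NSDHL, an earlier cholesterol enzyme, was at 0.471, 0.347 and 0.244 TPM. The first enzymes of progesterone synthesis, the gonadotropin receptors and the GnRH receptor were not analysed here.

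Some immediate early genes were abundant without treatment. Of 8 listed members, 7 were at 1 TPM or more in all 3 libraries, where 53.4% of all listed genes were. The median of the 8 was 51.0 TPM, against 1.504 over all genes. It fell in the gap between EGR1 and DUSP4, with no member near it. After JUN and RHOB came ZFP36L1, which promotes the decay of AU-rich mRNAs, at 119, 125 and 128 TPM, and the zinc finger factor EGR1 at 100.5, 92.5 and 88.9 TPM. DUSP4, a phosphatase of MAP kinases, was at 7.99 TPM, KLF2 at 5.25, ARC at 3.48 and ATF3 at 0.992 TPM. ARC and ATF3 were highest in replicate 1, at 5.54 and 1.59 TPM, against 1.99 to 2.92 and 0.665 to 0.723 TPM in the others.

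Cell cycle inhibitors were higher than genes of division. CDKN1B was at 417, 393 and 392 TPM and the antiproliferative gene BTG1 at 47.4, 44.0 and 36.5 TPM. The replication genes MCM6 and TYMS were at 8.54 and 8.09 TPM, the chromosome alignment factor CHAMP1 at 6.69, cyclin CCND1 at 6.58 and GINS3 at 3.19 TPM. CCND2 was at 0.979 TPM, GINS4 at 0.894, MCM10 at 0.264 and the securin PTTG1 at 0.193. All 3 values of CDKN1B and of BTG1 lay above every value of the other 9 listed members.

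Of 8 listed matrix, adhesion and actin genes, 6 (75%) were at 1 TPM or more in all 3 libraries, where 53.4% of all listed genes were. The 8 ranged from SPARC at 608, 652 and 619 TPM down to the collagen chain COL6A1 at 0.808 TPM. FN1, fibronectin, was at 1.64, 1.203 and 0.752 TPM. Tropomyosin TPM3 was at 48.9, the focal adhesion protein ZYX at 44.2, the actin nucleation subunit ARPC2 at 24.5 and ITGB1BP1 at 9.22 TPM. Outside that list, CLEC3B, the plasminogen-binding protein tetranectin, was at 189, 212 and 224 TPM, and the collagen chain COL22A1 at 0.0457, 0 and 0 TPM. AVD, avidin, a biotin-binding protein known from hen egg white, was at 53.2, 66.7 and 70.1 TPM.

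For iron and antioxidant defence all 8 listed genes were expressed, as were 53.4% of all listed genes. SLC25A28, a mitochondrial iron importer, was at 30.9 TPM, GSTO1 at 15.3, catalase (CAT) at 13.3, the extracellular superoxide dismutase SOD3 at 10.2 and the mitochondrial deacetylase SIRT3 at 6.57 TPM. In lipid metabolism DECR2, a peroxisomal reductase of fatty acid oxidation, was at 26.1 TPM, ECI2 at 6.85, DGAT2, which makes triglyceride, at 2.75, CPT2 at 2.70, FABP6 at 2.23 and lipoprotein lipase LPL at 0.720 TPM. In carbohydrate metabolism PGP, a phosphatase of glycolytic side products, was at 139, HYI at 26.3 and the glycogen primer GYG1 at 4.81 TPM.

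Of 7 listed innate immunity genes 6 (85.7%) were at 1 TPM or more in all 3 libraries, where 53.4% of all listed genes were. CEBPD led that list, and IRF4 was at 0.520 TPM. The interferon regulatory factor IRF7 was at 9.51, 10.3 and 10.2 TPM, the interferon receptor chains IFNAR2 and IFNAR1 at 5.85 and 3.74, the adaptor MYD88 at 2.38 and the ubiquitin ligase TRAF6 at 2.21 TPM. Outside that list, CISH, an inhibitor of cytokine receptor signalling, was at 100.97, 105 and 93.9 TPM. Other immune genes outside it were low. Of 5 listed complement genes, a list made after the values were seen, 0 were at 1 TPM or more in all 3 libraries. A group of 4 other immune proteins is among the 89 genes at 0 described below. The share of 85.7% therefore holds for the 7 list members only.

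The cell type given in the labels could be checked only in part. Of 27 granulosa cell markers 2 were listed, FST and the homeobox gene EMX2 at 1.29, 1.37 and 1.06 TPM. Both were expressed in all 3 libraries, as were 53.4% of all listed genes. The sum of FST and EMX2 was 54.95, 49.4 and 49.2 TPM in replicates 1, 2 and 3. FSHR, AMH, CYP11A1, STAR, FOXL2 and the other defining markers of granulosa cells were not analysed here. Of 17 endothelial markers 2 were listed. ENG was at 1.59, 1.55 and 1.36 TPM, below FST and above EMX2 in every library, and CDH5 at 0.0396 TPM or less. The sum of both was 1.62, 1.57 and 1.398 TPM. TCF21, the 1 of 20 theca and stroma markers listed, was at 0.265, 0.361 and 0.776 TPM. CD4, the 1 of 22 immune cell markers listed, was at 0.0512 TPM in replicate 1 and 0 in the others. C1QA and C1QB, complement genes known from macrophages but outside that list, had means of 0.279 and 0.319 TPM. Of 23 genes taken as oocyte and germ cell markers 2 were listed, ZP1 and STRA8. ZP1 was at 0.452, 0.408 and 0.328 TPM, and the sum of both was 0.666, 0.505 and 0.466 TPM. ZAR1, outside that list but known from oocytes, was at 0.934, 1.72 and 0.639 TPM. It was above ZP1 in every library and above EMX2 in replicate 2. Whether ZP1 or ZAR1 marks the oocyte in geese was not tested. ELF3, the 1 of 17 epithelial markers listed, was at 0 in all 3, and none of 13 red cell markers was listed. In such bulk samples a few cells with much of an RNA and many cells with little of it cannot be told apart.

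The 89 genes listed at 0 in all 3 blank libraries were grouped by hand, with no such grouping of the other listed genes, and 69 of them could be placed. The largest group was 19 transcription factors, including the neural and neural crest factors SOX2, SOX10, NEUROD2 and NKX2-2, PAX1, SIX2, TWIST2, UNCX, MSGN1 and HOXD12, and also FOXO1, known from mammalian granulosa cells. A further 15 genes are known from the nervous system and sense organs, among them the growth cone protein GAP43, the retinal genes RPE65 and PDE6G, the ear protein OTOL1 and the potassium channel KCNK9. There were 10 cytokines, chemokines and their receptors, namely IL2, IL10, IL13, IL17A, IL19, IL21, IL5RA, CXCL13, TNFRSF18 and XCR1. Neuropeptides, hormones and their receptors numbered 8, with NPY, NPPC, AVPR1B, GALR1, HTR1E, NPFFR1, NPY1R and PRLHR2. The 9 liver, blood, bone and muscle genes included the bile acid enzyme CYP8B1, tyrosine aminotransferase TAT, the globin HBM, the bone protein IBSP and the small heat shock proteins HSPB2 and HSPB3. Other immune proteins made up 4, and the egg coat gene ZPAX with SPERT and the histone genes H2AFX and HIST1H2B8 made up 2 each.

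A value of 0 cannot be taken as absence of the transcript. H2AFX encodes a histone variant that cells in general use, and it was listed at 0 in all 3 libraries. Whether a 0 reflects absence, low read depth or a failed estimate was not tested. The lowest value above 0 was 0.00632, 0.00171 and 0.0026 TPM in replicates 1, 2 and 3.

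Homeobox factors, receptors and neuronal genes had a larger share at 0 than all listed genes. Over all listed genes 53.4% were at 1 TPM or more in all 3. Of 28 listed homeobox and patterning transcription factors, 11 (39.3%) were at 0 in all 3 libraries, where 6.49% of all listed genes were, and 3 were at 1 TPM or more in all 3, namely ID4, EMX2 and HOXC8, the last at 3.27, 2.61 and 2.05 TPM. Of 14 receptors for hormones and transmitters, 6 (42.9%) were at 0 and the galanin receptor GALR3 alone was at 1 TPM or more in all 3, at 6.66, 6.84 and 4.84 TPM. The cannabinoid receptor CNR2 was at 0, 0.893 and 0.825 TPM and the melatonin receptor MTNR1A at 0.276, 0.251 and 0.232 TPM. Of 4 potassium channels 1 was at 0 and the rest were at 0.415 TPM or less in every library. Among 6 neuronal genes, MAPT, the microtubule protein tau, was at 5.37, 4.01 and 3.29 TPM and CEND1 at 1.64, 3.12 and 2.97 TPM, while GAP43 and NEUROD2 were at 0. No listed member of the striated muscle list and no listed connexin was at 0 in all 3 libraries. HSPB2 and HSPB3, grouped above with liver, blood, bone and muscle genes, are not in that muscle list. The muscle genes MB and MYL3 were at 0.289 TPM or less in every library. The connexin GJC1 was at 7.78, 7.73 and 7.22 TPM and GJA3 was above 0 only in replicate 3, at 0.0968 TPM.

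Of the 96 genes at 0 in 1 or 2 libraries, the highest mean was that of FBXL22, an F-box protein, at 4.08, 0 and 2.604 TPM. MRPL57 of the mitochondrial ribosome was at 0, 4.86 and 0 TPM. B3GALT1 was at 0, 1.09 and 0.681 TPM. For B3GALT1 and CNR2 the library at 0 was replicate 1.

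The 10 genes with the widest range over the libraries were taken from those with a mean of 5 TPM or more. Replicate 1 was the highest in 7 of the 10 and the lowest in 1. It was also the highest in 465 and the lowest in 131 of the 732 genes at 1 TPM or more in all 3. The 7 and 1 are therefore not read as particular to the widest genes. HDHD3 was at 35.01, 68.1 and 63.2 TPM and C1H2ORF49 at 142, 88.9 and 81.6 TPM. C3H6ORF203 was at 12.6, 6.04 and 6.39 TPM, and the secretogranin SCG2, a protein of secretory granules, at 13.5, 8.04 and 9.76 TPM. ATP5G3 differed in another library, at 3.97, 8.45 and 3.90 TPM. The remaining members were SF3B5, C18orf32, C5orf24, NENF and MRPL32. Of the 732 genes at 1 TPM or more in all 3, 21 had a range of 2-fold or more, and the median coefficient of variation was 10.02%.

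The position of replicate 1 moved with abundance. Its median ratio to the mean of replicates 2 and 3 was 0.899 for the 6 genes at 1000 TPM or more, 0.938 from 100 to 1000 TPM, 1.05 from 10 to 100, 1.19 from 1 to 10, 1.31 from 0.1 to 1 and 1.15 below 0.1 TPM. Replicates 2 and 3 had median ratios to each other between 0.972 and 1.09 in the same classes. Replicate 1 was the highest library for 73.6% of the genes from 1 to 10 TPM, and the lowest for 58.7% of those from 100 to 1000 TPM. Of the 6 genes at 1000 TPM or more, TIMM10 was highest in replicate 1 and the other 5 lowest. The part of the run, the culture or the read depth in this was not tested.

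**Figure D5:**
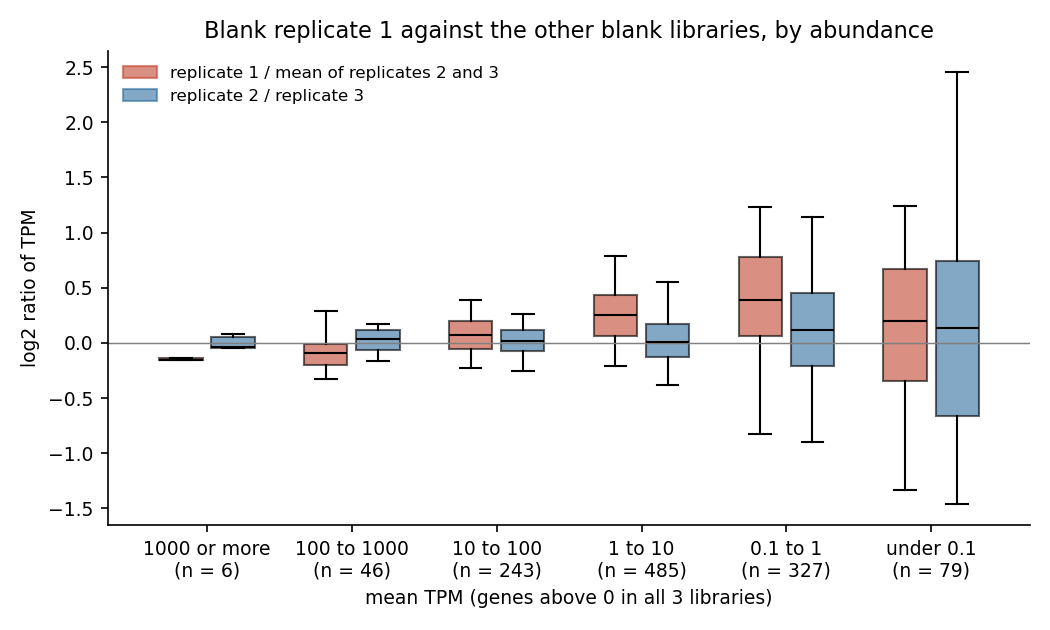
Log2 ratio of TPM (vertical) for genes above 0 in all 3 libraries, by class of mean TPM (horizontal, n genes below each class). Red boxes are replicate 1 over the mean of replicates 2 and 3, blue boxes replicate 2 over replicate 3; boxes span the quartiles, lines the median and whiskers percentiles 5 to 95. Red medians pass from below 0 in abundant genes to above 0 in scarce ones.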

How the data were processed

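The authors deposited 1 table of TPM values (length-corrected shares of transcripts, by gene name, 1 column per library), and the 3 blank columns were used. The submitters' processing notes list StringTie 1.2.2, Cuffdiff, Cufflinks 2.2.1, TopHat2 2.1.0 and CASAVA 1.8.2, with no role for any. RNA was isolated in Trizol and made into libraries with an NEBNext Ultra kit, per the labels' protocols. Genome build, annotation and use of strand were not given in the sources used here. Levels of overlapping genes, and of near-identical copies, are therefore uncertain. TPM keeps no read depth, so no counting interval could be given.

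Means, SDs, ranks and counts were computed with Python 3.11.15, numpy 2.4.6 and pandas 2.3.3, and tested on simulated data. Spread was taken as the SD of log2(TPM + 1). A gene counted as expressed at 1 TPM or more in all 3 libraries. No group was compared and no significance test was made. Genes were named by rule: the 30 most abundant, up to 6 of the highest and 6 at 0 in each gene list, the 10 with the widest range at a mean of 5 TPM or more, and the 5 highest among those at 0 in some libraries, and genes at 0 in all 3 by family. Genes named outside it were chosen after their values were seen. They were the complexes, GAS1, CISH, CLEC3B, COL22A1, AVD, ATP1B1, SMPD1, further list members and those of the closing observations. The lists, groups and members were chosen with earlier results of these data known. RefSeq names of the Taihu goose assembly matched 1255 of 1371 genes and served only to find neighbours. Results for some genes are counted in totals and are not reported here by name.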

Additional observations from a re-analysis of the deposited data

How the results depend on the processing

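The number of genes at 1 TPM or more in all 3 blank libraries was 732, and it was 415 at a limit of 5 TPM and 280 at 10 TPM. Limits of 0.1 and 0.5 TPM, the mean of the libraries, 2 of 3 libraries, or leaving out 1 library gave 738 to 1068. Of 74 counts of list members at limits of 0.5 or 5 TPM, 56 were within 1.5 times the count at 1 TPM. The 56 include lists with no member at 1 TPM. Such lists cannot have any at 5 TPM, and they had none at 0.5 TPM. The 89 genes at 0 became 168 with a limit of under 0.05 TPM and 216 under 0.1 TPM, and 101 to 107 without 1 library. Genes above 0 in every library kept numbered 1196 to 1209 without 1 library. The first 10 genes held 38.7% of the listed TPM, 38.4% to 39.1% without 1 library, and 1.25% of a full set of TPM values. The first 20 genes were the same 20 without any 1 library and by median or geometric mean, and 19 of them by the lowest library. The median SD of log2(TPM + 1) was 0.12 over the 3 libraries. Without 1 library it was 0.0699 to 0.130, each from SDs of 2 values, over genes at 1 TPM or more in both libraries kept. These cannot be compared directly with the SD of 3 values. The lowest was without replicate 1, and the cause was not tested. After scaling to equal median ratios, chosen after seeing the data, replicate 1 stood at 1.08 of the others from 1 to 10 TPM and at 0.849 from 100 to 1000 TPM, and with genes placed by replicates 2 and 3 alone at 1.177 and 0.942. No paired analysis was possible because the results come from no test between groups. Depth is unknown, so low values carry an error that cannot be given.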

Other observations

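Of 7 listed interferon and interleukin receptor chains, 4 (57.1%) were at 1 TPM or more in all 3 libraries, near the 53.4% of all listed genes. IFNGR2, a chain of the interferon gamma receptor, was at 25.1, 21.4 and 22.9 TPM in replicates 1, 2 and 3, and IL10RB, shared by receptors of the interleukin 10 family, at 2.55, 2.15 and 2.77 TPM. IL22RA1 was at 0.196, IL20RB at 0.166 and IL5RA at 0 TPM. Of 10 listed interleukins 6 were at 0 in all 3 libraries, where 6.49% of all listed genes were. IL8 alone was at 1 TPM or more in all 3, at 1.10, 1.88 and 1.55 TPM. These lists were made after the values were seen. The complement genes C1QA and C1QB, known from macrophages, were at 0.431, 0.405 and 0 TPM and at 0.270, 0 and 0.688 TPM.

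The neighbours HOXC6 and HOXC8, homeobox genes of the posterior body axis, were at 3.11 and 2.65 TPM, EVX2 at 0.963 and HOXD11 at 1.33, 0.615 and 0.567 TPM, while HOXD12, next to HOXD11 in the RefSeq order of genes, was at 0 in all 3 libraries. In that order 311 neighbouring pairs had both genes listed. Both were at 1 TPM or more in all 3 libraries in 107 pairs, 1 of them in 137 and neither in 67. Over all listed genes 53.4% were at 1 TPM or more in all 3. Whether the pair counts differ from those of genes that are not neighbours was not tested.

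TRIM7.2 was at 277, 307 and 289 TPM, and the gene listed as TRIM7 at 0.423, 0.520 and 0.375 TPM. AQP1, a water channel, was at 15.03, 13.95 and 16.6 TPM. ZAR1, known from oocytes, was at 0.934, 1.72 and 0.639 TPM. DLX5 was at 0.111 TPM in replicate 1 and at 1.58 and 1.04 TPM in the others, apart in the same way as HSD17B1.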
